A study of Arabidopsis thaliana with 20 samples.

Results

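The nuclear genes PSAN, PSBW, PSBY and LHCB1.5, all of the photosynthetic light reactions, were followed in Arabidopsis thaliana atpc1-1 and wild type (WT). Each was taken from the array as the row whose probe annotation lists that gene and no other. The 4 genes had 1 such row each, among 692 rows that list exactly 1 gene and 3439 rows in all. The locus tags are AT5G64040 for PSAN, AT2G30570 for PSBW, AT1G67740 for PSBY and AT2G34420 for LHCB1.5, which RefSeq lists under the symbol LHB1B2. RNA came from 10 samples of the atpc1-1 mutant and 10 WT samples, both of ecotype Columbia 0 and grown on MS medium, and total RNA was used throughout. Per the labels the mutant lacks the γ subunit of the ATP synthase. Organ, age, light and the number of plants per sample are not given in the labels, nor is the nature of the mutation.

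The chloroplast ATP synthase makes ATP from the proton gradient that the thylakoid electron transport chain builds up. Photosystem II, photosystem I and the cytochrome b6f complex between them form that chain, and chlorophyll-binding antenna proteins feed light energy into both photosystems. The 4 genes lie in the nucleus, and their proteins are imported into the chloroplast. PSAN encodes a subunit of photosystem I that sits on the lumen side of the thylakoid membrane, near the site where plastocyanin docks. PSBW encodes a small membrane protein of photosystem II that helps to hold antenna and core together in supercomplexes. PSBY encodes a precursor from which small membrane proteins of photosystem II are cut. LHCB1.5 encodes an LHCB1 protein, one of the main components of the trimeric light-harvesting complex of photosystem II.

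Each sample is 1 column of deposited linear intensities, so the number of arrays limits the precision. Median intensity per column was 0.130 to 0.224 in atpc1-1 and 0.339 to 0.493 in WT, and 5.70% to 20.8% of rows stood at 0 in atpc1-1 columns, against 3.63% to 4.36% in WT columns. Columns with adjoining label numbers (1 and 2, 3 and 4, and so on) resembled each other most in 10 of 10 columns of each genotype. The mean log2 value of such a pair served as 1 replicate, which leaves 5 replicates a genotype. WT replicate 5 stood apart. Its Spearman correlation across 1761 rows was 0.832 to 0.848 with the atpc1-1 replicates and 0.806 to 0.834 with the other WT replicates, which correlated at 0.889 to 0.956 among themselves. Rows are not independent replicates. For the results that it moves most, values without WT replicate 5 stand beside those with it. The probe for the mutated gene lists ATPC1 together with ATPC2 and read 0.410 ± 0.332 in atpc1-1 and 0.604 ± 0.155 in WT (deposited intensity, SD, n = 5 each), and which of these genes it reports is not settled, so it checks nothing about the labels. In RNA of mixed cells, fewer cells of a type and less RNA per cell cannot be told apart.

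PSBY rose in atpc1-1, and PSAN, PSBW and LHCB1.5 did not pass the test in the main analysis. After quantile normalisation, which gives all columns about the same distribution, 1 of 4 genes was called higher and 0 lower at a limma adjusted p under 0.05. Over all 3298 tested rows, 24.5% were called in either direction and 10.2% as higher, so 1 of 4 is near the background and is no result about the group. The median log2 difference was -0.11 over the 4 genes and -0.19 over all rows. For the 3 genes that were not called, the sign of the difference depended on how the columns were scaled, and with median centring all 3 were called higher.

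All 4 probes were bright in both genotypes. Every one was above 0 in 20 of 20 columns, as were 1761 of all 3439 rows (51.2%), and none came below percentile 82.5 of its column. PSBW was the extreme case, as only 4 of 3439 rows, itself included, had a lowest percentile as high as its 99.7. LHCB1.5 followed at 98.4, a floor reached by 25 rows. For PSAN the lowest percentile was 91.9, reached by 137 rows, and for PSBY 82.5, reached by 296 rows. None of the 4 touched the ceiling of 100, which 3 other rows did. Intensity depends on the probe as well as on the RNA, so these positions describe spots and do not rank the transcripts by amount.

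**Figure D1:**
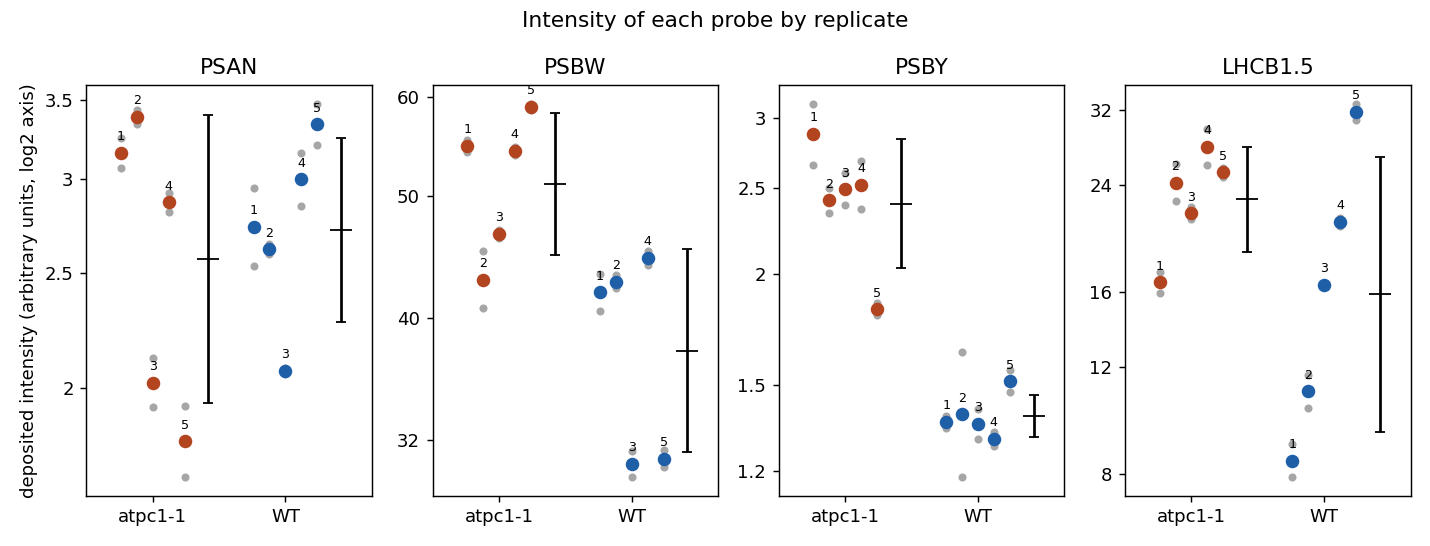
Deposited intensity (arbitrary units, log2 axis, a separate range per gene) of the 4 probes in atpc1-1 and WT. Numbered points are the 5 replicates, small grey points the 2 columns averaged in each, and the black bar the mean ± SD on the log2 scale; PSBY separates the genotypes, and LHCB1.5 spans 8.41 to 31.8 in WT.

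PSAN, the photosystem I subunit, had intensities of 3.16, 3.38, 2.02, 2.87 and 1.80 in atpc1-1 replicates 1 to 5, against 2.73, 2.62, 2.07, 2.997 and 3.34 in WT replicates 1 to 5. The genotypes overlapped over nearly their whole range. The lowest values were those of atpc1-1 replicates 5 and 3, while atpc1-1 replicate 2 was the highest of all. After quantile normalisation the log2 level was 1.39 ± 0.40 in atpc1-1 and 1.44 ± 0.22 in WT (SD, n = 5 each). The log2 difference of -0.04 (95% interval -0.60 to 0.52, limma adjusted p = 0.922) was within the replicate spread. Equal levels are not shown by this, as the interval allows a fall of 0.60 or a rise of 0.52 in log2. By rank PSAN stood at 143 to 281 from the top of the column in atpc1-1 and at 178 to 273 in WT.

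PSBW, which joins the photosystem II core to its antenna, read 54.8, 42.9, 46.7, 54.3 and 58.9 in atpc1-1 replicates 1 to 5, against 41.9, 42.7, 30.6, 44.7 and 30.9 in WT. On this deposited scale 4 of 5 atpc1-1 replicates lay above every WT replicate, and atpc1-1 replicate 2 lay inside the WT range. The probe held 1.28% to 1.77% of the summed intensity of an atpc1-1 column and 0.850% to 1.26% of a WT column. Its rank overlapped between the genotypes, at 6 to 12 from the top in atpc1-1 and 4 to 13 in WT.

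The call for PSBW therefore depended on the scaling. After quantile normalisation its log2 level was 5.22 ± 0.17 in atpc1-1 and 5.48 ± 0.35 in WT (SD, n = 5 each), a difference of -0.26 (95% interval -0.79 to 0.26, limma adjusted p = 0.440). On the deposited scale the difference was 0.44 (95% interval -0.05 to 0.93, limma adjusted p = 0.104). The median there was -1.22 over all rows and -0.17 over the 330 brightest tested rows, which include PSBW. With each column divided by its mean the difference was 0.59 and was called (limma adjusted p = 0.0406).

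PSBY, the photosystem II precursor gene, read 2.88, 2.42, 2.49, 2.52 and 1.83 in atpc1-1 replicates 1 to 5, against 1.36, 1.39, 1.36, 1.31 and 1.52 in WT. Every atpc1-1 replicate was above every WT replicate, atpc1-1 replicate 5 being closest to WT and WT replicate 5 closest to atpc1-1. The single columns did not overlap either, with 1.80 to 3.11 in the 10 atpc1-1 columns and 1.18 to 1.64 in the 10 WT columns. Without any scaling, 1.69% of rows had atpc1-1 columns that all lay above all WT columns.

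The rise of PSBY was a log2 difference of 1.04 (SE 0.21, 95% interval 0.583 to 1.504, limma adjusted p = 0.00781), or 2.06-fold, after quantile normalisation. The level was 1.29 ± 0.17 in atpc1-1 and 0.25 ± 0.17 in WT (log2, SD, n = 5 each). On the deposited scale it was 0.79, or 1.73-fold (limma adjusted p = 0.00796). The median there was -1.22 over all rows and -0.17 over the 330 brightest tested rows, which include PSBY. The difference lay above that of 87.7% of tested rows after quantile normalisation and of 94.9% on the deposited scale. Without WT replicate 5 it was 1.11 after quantile normalisation (limma adjusted p = 0.00391) and 0.83 on the deposited scale (limma adjusted p = 0.0102).

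PSBY varied little between replicates, in WT above all on the deposited scale. Its replicate SD there was 0.08 in log2 on the deposited scale, and only 0.681% of the 1761 rows above 0 in all columns had a smaller one. In atpc1-1 the SD was 0.24, with 10.4% of rows below it. The median SD over those rows was 0.49 in atpc1-1 and 0.35 in WT. After quantile normalisation the SD of PSBY was 0.17 in both genotypes, with 5.05% of rows below it in atpc1-1 and 4.54% in WT, so the gap between the genotypes seen on the deposited scale was gone. Within a replicate the columns could still differ, by up to 1.38-fold in WT replicate 2 (1.64 and 1.18).

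LHCB1.5, the antenna gene, read 16.6, 24.3, 21.6, 27.8 and 25.2 in atpc1-1 replicates 1 to 5, against 8.41, 10.9, 16.4, 20.9 and 31.8 in WT. WT held both the lowest and the highest values, and the WT values rose steadily with the replicate number. The atpc1-1 values did not rise at every step, but replicate 1 was the lowest there and replicates 4 and 5 were the highest. WT replicate 5, the highest, is thus the upper end of a series, and its omission cuts off that end. Without it, 4 of 5 atpc1-1 replicates lay above the highest WT replicate. The atpc1-1 replicates spanned 1.68-fold and the WT replicates 3.78-fold, or 2.48-fold without WT replicate 5, whereas the 2 columns of a replicate differed by at most 1.15-fold in atpc1-1 and 1.13-fold in WT. The WT spread thus lay between replicates and not between the columns of a replicate. Among 1761 rows, 17.0% had a smaller atpc1-1 replicate SD than the 0.29 of LHCB1.5 (log2, deposited scale), and 94.2% had a smaller WT SD than its 0.76. Without WT replicate 5 its WT SD was 0.59, with 93.1% of rows below it. A difference in spread between the genotypes was not tested.

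LHCB1.5 passed the test with median centring (1.68, 95% interval 0.71 to 2.65, limma adjusted p = 0.0186) and in none of the other 4 scalings run. After quantile normalisation the log2 level was 4.14 ± 0.27 in atpc1-1 and 4.32 ± 0.80 in WT (SD, n = 5 each), a difference of -0.18 (95% interval -0.99 to 0.63, limma adjusted p = 0.743). WT replicate 5 was the highest value, and without it the difference was 0.04 after quantile normalisation. On the deposited scale it was 0.52 (limma adjusted p = 0.224) and, without WT replicate 5, 0.77 (95% interval 0.06 to 1.48, limma adjusted p = 0.0568). LHCB1 proteins are encoded by several closely similar genes. The probe's sequence was not used here, and whether it also binds transcripts of the other copies was not tested, so its values may stand for more than LHCB1.5.

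**Figure D2:**
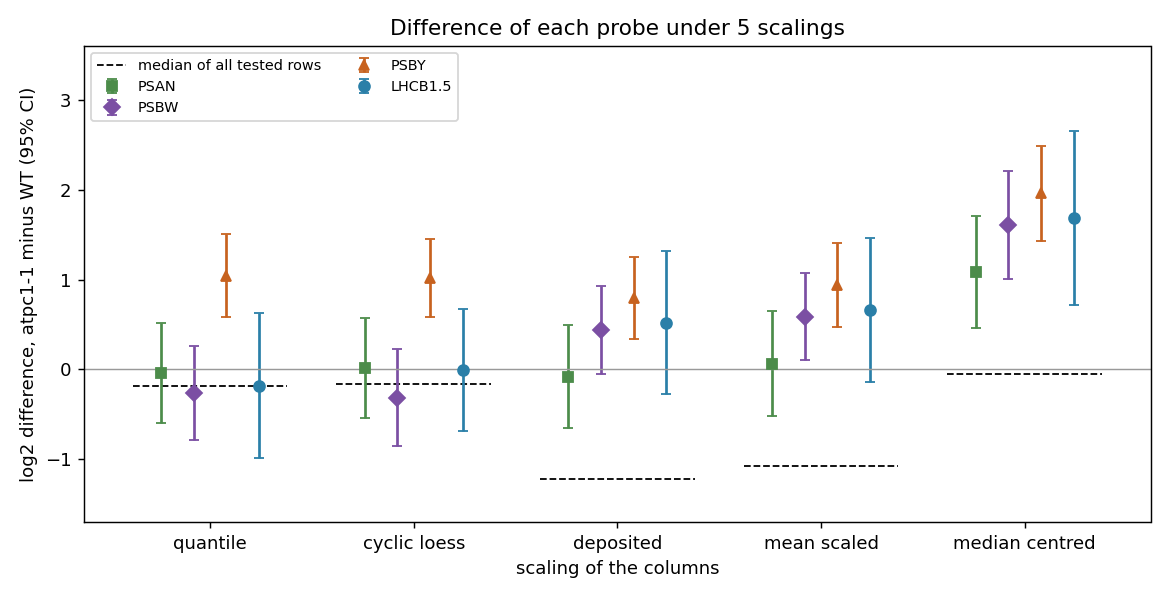
Log2 difference, atpc1-1 minus WT, of the 4 probes under 5 scalings of the columns (points, with 95% intervals of the limma fit), with the median of all tested rows as a dashed line. PSBY lies between 0.79 and 1.96, while PSBW and LHCB1.5 are below 0 with quantile normalisation and cyclic loess and above 0 in the other 3.

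Scaling decided how many of the 4 genes were called. As with quantile normalisation, PSBY alone was called with cyclic loess, which called 9.4% of all rows higher. PSBY alone was also called on the deposited scale, where 3.82% of rows were higher. With mean scaling PSBY and PSBW were called, against 4.55% of rows called higher. With the columns centred on their medians all 4 were called higher, at 1.08 for PSAN, 1.61 for PSBW, 1.96 for PSBY and 1.68 for LHCB1.5, against 15.1% of all rows.

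The calls under each scaling need the bright rows beside them. All 4 genes belong to the 330 brightest of the tested rows (the top 10%). Among these the median log2 difference was 0.99 with median centring, -0.17 on the deposited scale and -0.24 with quantile normalisation, against -0.05, -1.22 and -0.19 over all rows. With median centring 182 of the 330 were called higher and 3 lower. With median centring PSAN, at 1.08, was close to the typical bright row, and PSBW, PSBY and LHCB1.5 lay above it. The part of brightness in the calls of the 4 genes was not tested.

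**Figure D3:**
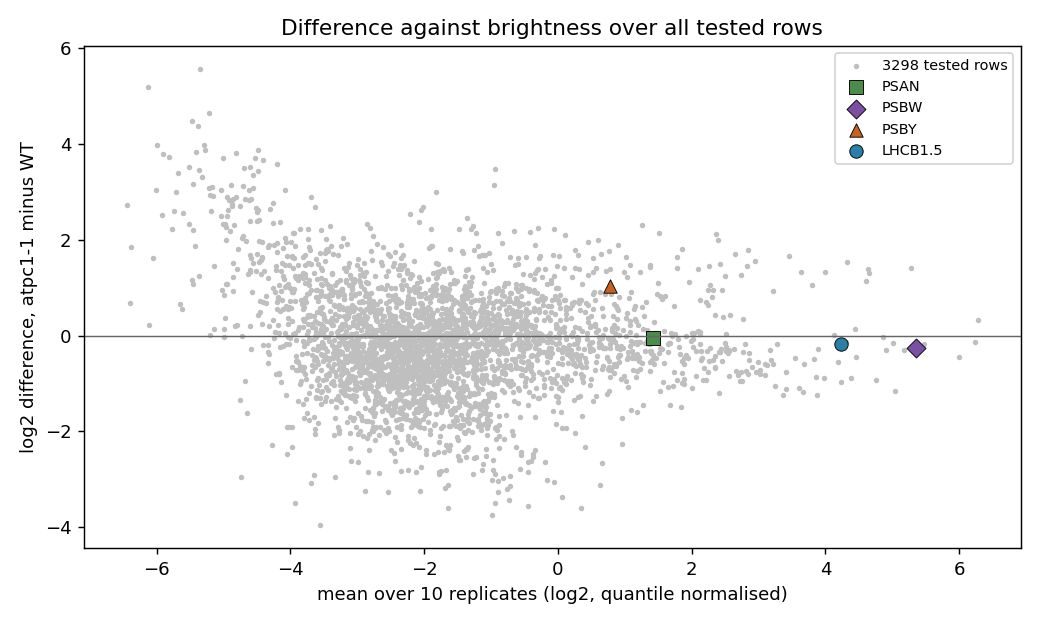
Log2 difference, atpc1-1 minus WT (y axis), against the mean log2 value over the 10 replicates (x axis), both after quantile normalisation, for 3298 tested rows in grey and the 4 probes as large symbols. The 4 probes are among the 330 brightest; PSBY is at 1.04, and PSAN, LHCB1.5 and PSBW are between -0.26 and -0.04.

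Rank within the column, which any scaling that keeps the order of rows leaves alone, again separated PSBY. It ranked 169 to 266 from the top in the 10 atpc1-1 columns (median 205) and 386 to 603 in the 10 WT columns (median 501). The ranks did not overlap, which was so in the higher direction for 4.89% of rows. As a percentile of the column PSBY stood at 93.8 ± 0.9 in atpc1-1 and 85.8 ± 1.6 in WT (SD, n = 5 each), a difference of 8.02 points, larger than that of 70.0% of rows. The exact permutation test over 252 arrangements, two-sided, gave p = 0.00794, the smallest p it can give, and an adjusted p of 0.0427 over all 3439 rows, where 11.1% of rows were called higher. That adjusted p was 0.0444 without WT replicate 5 and exceeded 0.05 for 8 of the 10 replicates when each was omitted, although the unadjusted exact p was 0.00794 in each.

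None of the other 3 genes passed this test. The percentile differences were 0.41 points for PSAN (94.2 ± 1.6 in atpc1-1 and 93.8 ± 1.0 in WT, SD, n = 5 each, exact permutation p = 0.611), -0.05 for PSBW (exact permutation p = 0.437) and 0.06 for LHCB1.5 (exact permutation p = 0.802). A percentile this close to 100 has little room to rise. For LHCB1.5 the ranks were 19 to 31 in atpc1-1 and 10 to 55 in WT.

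**Figure D4:**
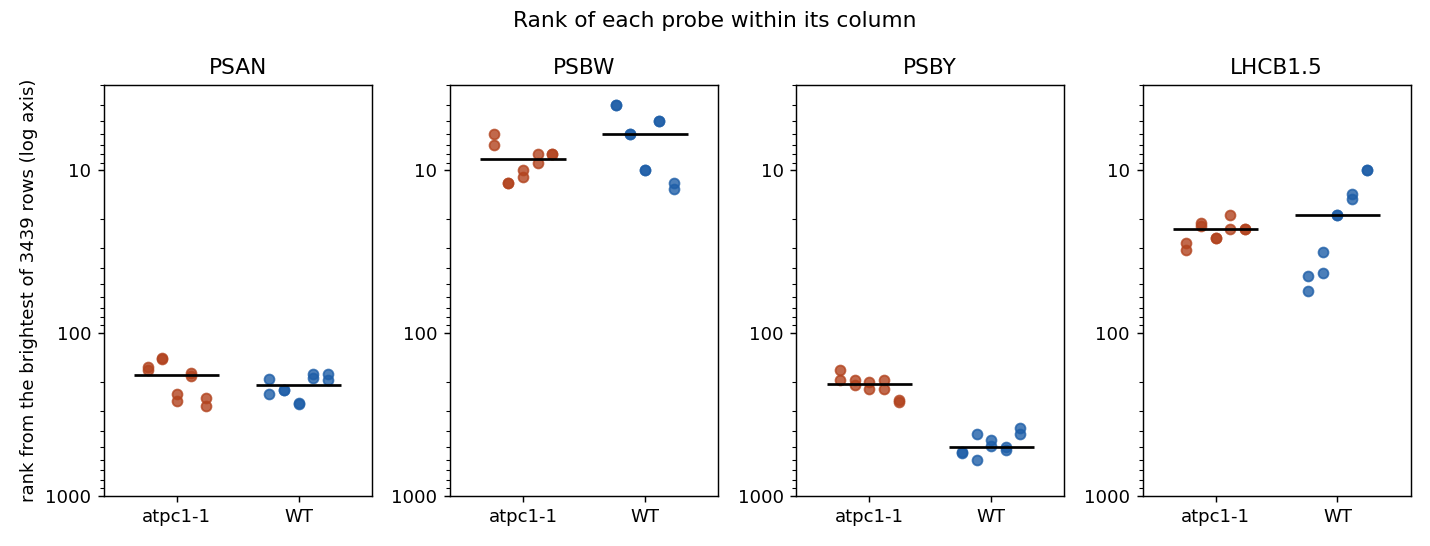
Rank of each probe from the brightest of 3439 rows (log axis, brightest at the top) in the 10 columns of atpc1-1 and of WT, with horizontal lines at the medians. Only the PSBY ranks do not overlap between the genotypes (169 to 266 against 386 to 603).

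Ratios between probes of the same column compare the genes with each other free of any factor per column. Only their difference between genotypes is read here, since the size of a ratio also reflects the probes. All 6 ratios were computed, each tested by an exact permutation test over 252 arrangements, two-sided, with Benjamini-Hochberg adjustment over the 6.

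The ratio of PSAN to PSBY was 1.098, 1.397, 0.810, 1.14 and 0.986 in atpc1-1 replicates 1 to 5, against 2.004, 1.88, 1.52, 2.295 and 2.201 in WT. No replicate of one genotype reached the range of the other, all 5 atpc1-1 values being below all 5 WT values. PSBY on its own already separated the replicates, while PSAN differed by -0.08 in log2 on the deposited scale. The share of other row pairs whose ratio separates the genotypes was not computed. The single columns just met, with 0.741 to 1.46 in atpc1-1 and 1.46 to 2.37 in WT. The log2 ratio was 0.10 ± 0.29 in atpc1-1 and 0.97 ± 0.23 in WT (SD, n = 5 each), a difference of -0.88 (SE 0.17, exact permutation p = 0.00794, adjusted p = 0.0476). The unadjusted p is the smallest that this test can give. PSBY thus gained 1.84-fold on PSAN in atpc1-1, which concerns these 2 probes and not the 2 photosystems. The adjusted p was 0.0952 without atpc1-1 replicate 3 and without WT replicate 1, 4 or 5, where the ratio stayed lower at -0.78, -0.87, -0.82 and -0.83.

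No other ratio passed. PSBY did not separate from the other photosystem II genes by this measure, with log2 differences of -0.35 for PSBW over PSBY (SE 0.21, exact permutation p = 0.111, adjusted p = 0.222) and 0.27 for PSBY over LHCB1.5 (SE 0.39, exact permutation p = 0.500, adjusted p = 0.6). Without WT replicate 5 the second was 0.056 (adjusted p = 0.889). After quantile normalisation, which acts differently on bright and less bright rows, both passed, at -1.31 and 1.22 (adjusted p = 0.0159 each). The deposited values used for the ratios also depend on brightness. Their median log2 difference was -0.17 in the brightest 10% of tested rows and -0.68 in the next 10%. A ratio within a column does not remove this. That PSBY rose more than PSBW or LHCB1.5 is thus not settled by these data.

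PSAN over PSBW was at -0.52 (SE 0.27, adjusted p = 0.222) and PSAN over LHCB1.5 at -0.60 (SE 0.39, adjusted p = 0.226). The first passed without atpc1-1 replicate 2, at -0.69 (adjusted p = 0.0238), and both turned positive after quantile normalisation, at 0.22 and 0.14. Without WT replicate 5 the first was weaker, at -0.38 (adjusted p = 0.321), and the second was at -0.78 (adjusted p = 0.175). PSAN over LHCB1.5 was 0.190, 0.139, 0.0936, 0.103 and 0.0715 in atpc1-1 replicates 1 to 5, against 0.325, 0.239, 0.126, 0.144 and 0.105 in WT. Each atpc1-1 value was below the WT value of the same number, and both genotypes took the same order over the numbers. PSBW over LHCB1.5 differed least, at -0.08 (SE 0.44, adjusted p = 0.849). Within WT it ran over 4.98, 3.90, 1.86, 2.14 and 0.973 in replicates 1 to 5, whereas the atpc1-1 replicates stood at 3.31, 1.77, 2.16, 1.95 and 2.34. The lowest and the highest values were both WT, but the lowest was WT replicate 5, without which the difference was -0.40 (adjusted p = 0.324).

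**Figure D5:**
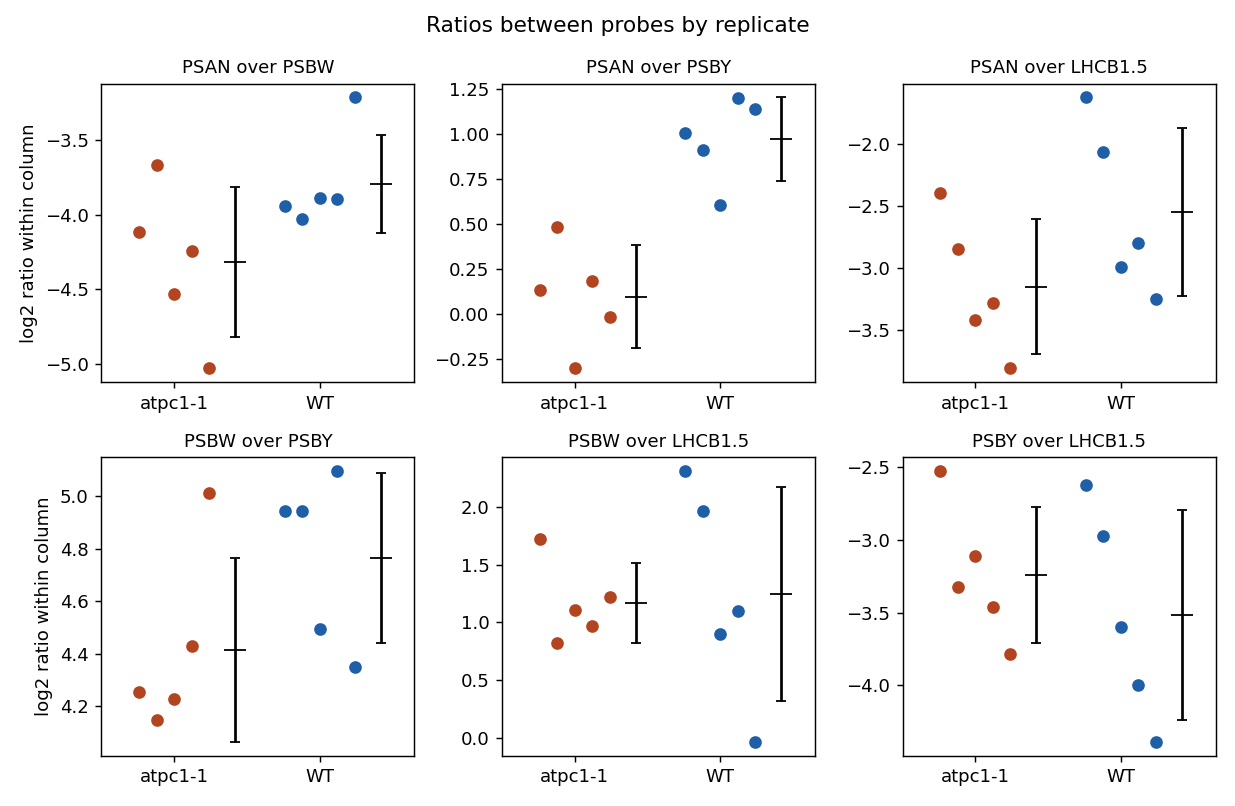
Log2 ratio between the intensities of 2 probes in the same column, averaged over the 2 columns of each of the 5 replicates of atpc1-1 and of WT (points), with mean ± SD (black). Only PSAN over PSBY separates the genotypes, at 0.10 ± 0.29 in atpc1-1 and 0.97 ± 0.23 in WT.

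In quantile normalised values the 4 genes did not move as a unit across replicates. Pearson's r between them over the 10 replicates was taken on deviations from the genotype means. It was 0.59 for PSAN with PSBY and 0.49 for PSBY with LHCB1.5, but -0.70 for PSBW with PSBY and -0.68 for PSBW with LHCB1.5. PSAN was at 0.23 with LHCB1.5 and at -0.003 with PSBW. Values of r under other scalings are not given here. These r describe 10 points that share columns and scaling. Within WT, replicate 5 had the lowest PSBW level (5.02) and the highest PSBY (0.53) and LHCB1.5 (5.22) levels (log2, quantile normalised). How far these r rest on that replicate was not tested.

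The rows most like each gene were sought among the 320 other rows that list 1 gene and were above 0 in all columns, by r over the 10 replicates. PSBY was most like AT3G54210 (r = 0.968), AT2G43180 (0.961) and AT4G20690 (0.949). All 3 were themselves called higher in atpc1-1, at log2 differences of 1.23, 1.90 and 1.09, and r of the deviations from the genotype means was 0.649, 0.530 and 0.681. The high r of PSBY thus holds the genotype difference itself.

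For LHCB1.5 the nearest rows were AT2G22890 (r = 0.833), AT3G57120 (0.825) and ATSIK (0.748), none of them called. PSBW was nearest to AT5G42680 (0.763), AT5G19900 (0.732) and AT4G31530 (0.723), and PSAN to AT3G04500 (0.744), AT4G33540 (0.666) and AT4G38040 (0.639), likewise with no call among them.

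The array covers the surrounding pathway thinly. Of 57 nuclear genes for subunits of photosystem I, photosystem II, their antennae, the electron carriers and the chloroplast ATP synthase, 4 had a row of their own, and these are the genes described here. A further 6 appeared only on 3 rows that list several genes and are given no value of their own, apart from the ATPC1 row above, and 47 were on no row of the annotation used here. PSAN was the 1 measured gene of 12 for photosystem I, PSBW and PSBY were 2 of 12 for photosystem II, and LHCB1.5 was 1 of 15 LHCB genes. No LHCA gene of 6 had its own row. None of 3 green tissue markers (RBCS1A, CA1, GAPB) or 2 root markers (BGLU23, BGLU22) had one, so the tissue could not be checked.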

How the data were processed

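Total RNA of 20 Arabidopsis samples was profiled on an array. The deposited values are linear intensities, 1 column per sample; the sources used here do not give how the authors made them (background correction, scaling, filters). Gene names came from the platform's probe annotation, updated through RefSeq's table of assembly TAIR10.1. Intensities were taken to log2 with 0 as missing, followed by quantile normalisation of the columns (limma 3.58.1, R 4.3.3). Columns of adjoining label numbers were averaged, after a check that deviations from the genotype mean correlated best within these pairs (r 0.0249 to 0.576 in atpc1-1, 0.351 to 0.868 in WT). Nothing says that replicates are separate plants, so the spread behind the p-values, which is that between these samples, may be technical.

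Rows with at least 3 of 5 replicates per genotype (3298) were fitted with lmFit and eBayes, two-sided, with Benjamini-Hochberg adjustment over all of them, a threshold of 0.05 and genotype as the only term. Log2 differences are atpc1-1 minus WT. Ranks used deposited values; exact permutation tests of ranks were adjusted over all 3439 rows, those of ratios over the 6 ratios. The procedures were tested on simulated data. The genes named are the 4 members, pathway genes with a row of their own and the 3 rows most like each member. Members, lists and tests were chosen with earlier results of these data known. Alternatives covered scaling, zeros, a pseudocount of 0.05, filters, pair handling, a replicate block and each replicate left out.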

Additional observations from a re-analysis of the deposited data

Results flagged for a closer look

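Among 36 groups of 5 replicates (levels, percentiles and ratios of the 4 genes in each genotype), 1 held a replicate far from the others, where chance gives about 1 in 20, or 1.80, in independent groups, which these are not. It was the ratio of PSAN to PSBW in WT. WT replicate 5 stood at 0.108, against 0.0652, 0.0612, 0.0676 and 0.0671 in WT replicates 1 to 4. In log2 its gap to the nearest was 0.826 of the group's range. The same replicate had the highest PSAN intensity in WT (3.34) and the second-lowest PSBW intensity there (30.9).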

How the results depend on the processing

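Of the values above only the PSBY difference in level kept its direction and its call under every alternative run. It ranged from 0.79 (deposited scale) to 1.96 (median centring) over the settings and from 1.00 to 1.11 over the fits with 1 replicate left out, with limma adjusted p-values up to 0.0259. The count of called rows, 808, was 2022 on the deposited scale (126 higher, 1896 lower), 1816 with mean scaling (150 and 1666), 1410 with all 10 columns as replicates and 1983 on the deposited scale without WT replicate 5, a setting chosen after seeing the data. Against 337 higher and 471 lower, it split into 310 and 293 with cyclic loess, 497 and 403 with median centring, 408 and 243 with the lowest positive value in place of 0, and 631 and 533 with the pseudocount. It was 453 to 957 with a replicate left out, lowest without WT replicate 2 and highest without WT replicate 5; without WT replicate 1, 3 or 4 it was 476, 461 and 478. The cause of these shifts was not tested.

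Differences that were not called changed sign easily. PSAN was at 1.08 with median centring, where it was called, and uncalled at 0.063 with mean scaling, 0.014 with cyclic loess, and 0.12 both with the lowest positive value in place of 0 and with the pseudocount. PSBW was at 0.44 on the deposited scale, 0.37 there without WT replicate 5, 0.59 with mean scaling and 1.61 with median centring, the last 2 called. LHCB1.5 was at 0.52, 0.77, 0.66 and 1.68 in these settings, called only with median centring. With a replicate left out PSAN ran from -0.18 to 0.058 and LHCB1.5 from -0.44 to 0.045. In percentile points PSAN ran from -0.013 to 0.88, LHCB1.5 from -0.11 to 0.18 and PSBY from 7.63 to 8.66, and PSBW was at 0.058 among rows listing 1 gene. The ratio differences with a replicate left out ran from -0.69 to -0.35 for PSAN over PSBW, -0.97 to -0.78 for PSAN over PSBY, -0.79 to -0.37 for PSAN over LHCB1.5, -0.50 to -0.27 for PSBW over PSBY, -0.40 to 0.19 for PSBW over LHCB1.5 and 0.056 to 0.50 for PSBY over LHCB1.5. PSAN over PSBW passed with all 10 columns as replicates, at -0.52 (permutation adjusted p = 0.0302). In quantile normalised values PSAN over PSBW and PSAN over LHCB1.5 were at 0.22 and 0.14, and PSBW over PSBY and PSBY over LHCB1.5 passed at -1.31 and 1.22.

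With the label number as a replicate block, 317 rows were called higher and 415 lower, and PSBY stayed called at 1.04 (limma adjusted p = 0.0259). Same-numbered replicates of the 2 genotypes correlated in their deviations at 0.0297 to 0.354, and 2 of 5 correlated best with their own number. Whether they share more than a number is not settled by this. The paired exact permutation cannot go below p = 0.0625, so there PSBY's 8.02 percentile points and the -0.88 of PSAN over PSBY could not pass. The -0.60 of PSAN over LHCB1.5 also stood at this smallest p (paired exact permutation p = 0.0625, adjusted p = 0.188). It was lower in atpc1-1 in every same-numbered pair.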
